A study of Mus musculus with 111 samples.

Results

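The 7 gene rows described here are those of pituitary hormone genes and of 1 noncoding neighbour: Tshb, Cga, Lhb, Pomc, Gh, Prl and Platr9, out of 54087 gene names counted in each library. They were chosen by name, and Platr9 and Pomc also because their counts separated the Q5A libraries from the controls, so the difference between Q5A and controls is given below as a description, with no test. The libraries were made from polyadenylated RNA of the tuberomammillary nucleus (TMN), the posterior hypothalamic nucleus that makes the histamine of the brain, of adult male and female C57BL/6 mice (C57BL/6J by the study's methods), with 1 animal per library. Into that nucleus the mice were given an adeno-associated virus, 1 of 3 kinds, and the tissue was dissected under guidance of the GFP that all 3 viruses express. GFP libraries came from the empty virus that makes GFP only, H3.3 libraries from a virus that adds wild-type histone H3.3, and Q5A libraries from a virus that adds H3.3 with alanine in place of glutamine 5, so that the histone cannot carry a monoamine there. The added histone came on top of the endogenous H3.3 that all of the animals still made. Tissue was taken at 6 zeitgeber times (ZT), every 4 h from ZT0 at lights on to ZT20, and in cohorts numbered 1 to 3 by the labels, which do not say what a cohort stands for.

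After 1 pair of Q5A libraries at ZT4 (cohort 2, replicates 2 and 3) that differed by less than the sampling noise was averaged and counted as 1 sample, there were 110 libraries in 18 groups of virus and ZT, with 4 to 8 libraries each. They comprised 32 GFP, 39 H3.3 and 39 Q5A libraries, and GFP and H3.3 together are called the 71 controls. Cohort 1 held 78 libraries, cohort 2 held 24 and cohort 3 held 8, with no GFP library in cohort 3. The gene rows of a library held between 673306 and 3375352 reads (median 1474422). At these totals of counted reads most member rows lie close to the limit of a single read.

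The anterior lobe of the pituitary holds separate endocrine cell types that make growth hormone (Gh), prolactin (Prl), the beta chains of luteinising hormone (Lhb) and thyrotropin (Tshb), and proopiomelanocortin (Pomc), the precursor of corticotropin. The glycoprotein hormones share 1 alpha chain, Cga. The pars tuberalis is a thin sheet of pituitary tissue that wraps the stalk and touches the base of the hypothalamus. Its cells make Tshb and Cga, carry the melatonin receptor Mtnr1a, and act on neighbouring tanycytes, the glia that line the floor of the third ventricle. Pomc is also made in the intermediate lobe and by neurons of the arcuate nucleus of the hypothalamus, so of these genes it alone has an established neuronal source close to the TMN. In bulk tissue, fewer cells of a type and less RNA per cell cannot be told apart.

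The 7 rows do not stand alone on the genome. In the GRCm38 annotation used here (GENCODE M21), Platr9, a noncoding processed transcript (chr4:34906124-34911481, minus strand), runs into the last exon of Cga (chr4:34893779-34907370, plus strand), and the transcripts share 305 exonic bases, which are 12.8% of the exonic bases of Platr9 and 32% of those of Cga. Of these shared bases, 75 encode part of the alpha chain (chr4:34907066-34907140). They are shown on the strand of Cga because a read from there can be entered under either name, depending only on the strand setting of the counting.

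Cga coding bases shared with Platr9: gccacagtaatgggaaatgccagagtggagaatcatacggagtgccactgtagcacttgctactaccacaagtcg

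Lhb (chr7:45420820-45421897, plus strand) shares 138 exonic bases, or 20.4% of its own, with Ruvbl2 on the minus strand, which encodes a helicase-like ATPase found in most cells. Tshb (chr3:102775465-102782718, minus strand) lies within the span of Tspan2 on the plus strand, a membrane protein gene of oligodendrocytes, with 0 exonic bases shared. Pomc (chr12:3954951-3960642, plus strand) and Gh (chr11:106300271-106301865, minus strand) have no annotated gene opposite them. Prl (chr13:27057570-27065205, plus strand) has only the span of Gm47888 there, with 0 exonic bases shared and no row in the count tables.

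The authors counted a read only when it lay on the same strand as the gene, whereas the first read of their kit runs against the transcript. Gene rows then held 3.49% to 5.63% of the uniquely placed reads. Between 16191017 and 70397339 reads per library fell on no gene in this counting. With this kit and setting, a read of a gene's own transcript falls outside its row, and a row takes in reads of RNA from the other strand. Which strand's RNA gave the reads of each single row was not tested. The gene names below are therefore names of rows, not of proven transcripts. The rows opposite each other were far from equal. The Platr9 row held more reads than the Cga row in 45 libraries and fewer in 1. The Tshb row held more reads than the Tspan2 row in 105 of 110 libraries, and the Tspan2 row totalled 2863 reads. The Ruvbl2 row held more reads than the Lhb row in all 110 libraries, with 17 reads in the lowest, 73 in the median and 212 in the highest.

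The start sites of the members set the hormone genes apart from Platr9. Promoters from the RefSeq table of GRCm38.p6 were found for 6 of the 7 members, Gh being the one not matched. The TATA box motif TATAAA stood on the sense strand within 40 bases before the start in 5 of these 6, against 2.31% of the 32851 promoters in the table. The exception was Platr9. The E-box CACGTG, bound by CLOCK and BMAL1, was found in 0 of the 6 promoters of 300 bases on either strand, against 7.15% of all promoters. The cyclic AMP response element TGACGTCA, against 1.79% of all, and the pituitary homeobox motif TAATCC, against 7.06% of all, were also found in 0 of the 6. These are matches of letters, not sites shown to be bound. The windows below run from 60 bases before the start to 20 after it on the gene's own strand, with TATAAA in capitals, and show the motif that the hormone promoters share and Platr9 lacks.

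Tshb, chr3:102782695-102782774, minus strand: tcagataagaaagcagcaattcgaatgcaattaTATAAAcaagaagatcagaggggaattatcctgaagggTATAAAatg
Cga, chr4:34893719-34893798, plus strand: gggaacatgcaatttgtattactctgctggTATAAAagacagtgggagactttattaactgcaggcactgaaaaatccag
Lhb, chr7:45420886-45420965, plus strand: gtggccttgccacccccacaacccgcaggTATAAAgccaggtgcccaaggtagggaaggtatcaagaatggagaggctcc
Pomc, chr12:3954885-3954964, plus strand: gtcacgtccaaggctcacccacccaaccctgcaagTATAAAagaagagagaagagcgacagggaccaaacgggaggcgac
Prl, chr13:27057510-27057589, plus strand: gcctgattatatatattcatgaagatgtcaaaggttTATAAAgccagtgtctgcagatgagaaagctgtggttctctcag
Platr9, chr4:34911462-34911541, minus strand: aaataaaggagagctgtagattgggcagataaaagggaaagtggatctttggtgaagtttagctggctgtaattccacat

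The 7 rows fell into 2 kinds by the number of libraries that held reads. Tshb and Lhb had at least 1 read in every one of the 110 libraries, and Pomc in 102. The other 4 rows were at 0 reads in most libraries. Platr9 had a read in 46, Gh in 21, Prl in 6 and Cga in 4. A library at 0 is compatible with up to 3 reads by counting error alone.

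Compared per length, as CPM (reads scaled to the library's total gene count) per kb of exon, Lhb had the highest mean over the 110 libraries at 12.3 ± 5.29 (SD, n = 110), followed by Tshb at 10.4 ± 3.31. Lhb exceeded Tshb in 58 libraries and was below it in 52, so that these neighbours in the order did not differ beyond their spread. Pomc came next at 4.43 ± 18.3 with a median of 1.89, below Tshb in 104 libraries. Platr9 followed at 3.8 ± 29.7 with a median of 0. Pomc was above Platr9 in 93 libraries and below it in 12. Gh (1.08 ± 6.29), Prl (0.171 ± 1.08) and Cga (0.0512 ± 0.383) closed the order, and their SDs exceeded their means several times over. For the last 5 genes the mean depended on 1 library described below.

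Tshb, the beta chain that defines pars tuberalis and anterior lobe thyrotropes, was the best-covered member, with 7360 reads in all. GFP libraries held 33 reads in the lowest, 73 in the median and 120 in the highest. H3.3 libraries held 21, 61 and 103 reads, and Q5A libraries 30, 61 and 161. The ranges of the 3 viruses overlapped almost entirely. In normalised counts, that is reads divided by a size factor per library, Tshb stood at 67.2 ± 25.0 in the controls (SD, n = 71) and at 62.8 ± 21.7 in Q5A (SD, n = 39).

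Cga, the alpha chain that any Tshb-making cell also needs, was nearly absent from its row. It held 8 reads over all libraries. GFP libraries had 0 reads, which allows up to 0.0635 CPM over the GFP set, H3.3 libraries had 1 and Q5A libraries had 7. Of those 7 reads, 5 lay in a single library at ZT16. The Tshb and Cga rows thus both held reads in 4 libraries, and the other libraries had reads in the Tshb row and 0 in the Cga row. By the kit and the strand setting, reads of the Cga exon shared with Platr9 would enter the Platr9 row. Whether cells made Tshb without Cga was therefore not tested by these rows.

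The row of Lhb, the beta chain of the gonadotropes, held 1340 reads and, like that of Tshb, was even between viruses. By the kit and the strand setting, reads of the 138 Ruvbl2 exonic bases shared with Lhb would enter the Lhb row. Whether gonadotrope RNA gave any of its reads was not tested. The lowest, median and highest libraries held 4, 10 and 20 reads with GFP, 1, 11 and 42 with H3.3, and 4, 13 and 46 with Q5A. Normalised counts were 11.6 ± 6.11 in the controls (SD, n = 71) and 11.9 ± 4.71 in Q5A (SD, n = 39). Fshb, the other gonadotrope beta chain, held 3 reads in all.

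Pomc was low and even in the controls and reached high values in a few Q5A libraries. It held 0, 3 and 9 reads in the lowest, median and highest GFP libraries, 0, 3 and 24 in those of H3.3, and 0, 4 and 334 in those of Q5A. The medians of the 3 viruses lay within 1 read of each other. At least 10 Pomc reads were found in 0 GFP, 2 H3.3 and 9 Q5A libraries.

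Platr9 showed the same shape more sharply. It held 0 reads in the median and 8 in the highest GFP library, 0 and 9 in those of H3.3, and 1 and 986 in those of Q5A. Of 1298 Platr9 reads, 1221 came from Q5A libraries, and 986 of these from 1 library. The Q5A libraries other than that one held 235 reads, with 55 in the highest.

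Gh and Prl, the hormones of the somatotropes and lactotropes, were found in few libraries of any virus. Gh held 8 reads in 4 GFP libraries, 3 reads in 2 H3.3 libraries and 133 reads in 15 Q5A libraries. Leaving out the library with the most reads left 59 Gh reads in 14 Q5A libraries. Prl held 2 reads in 2 GFP libraries, 0 in H3.3 libraries, which allows up to 0.0568 CPM over the H3.3 set, and 27 reads in 4 Q5A libraries.

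**Figure D1:**
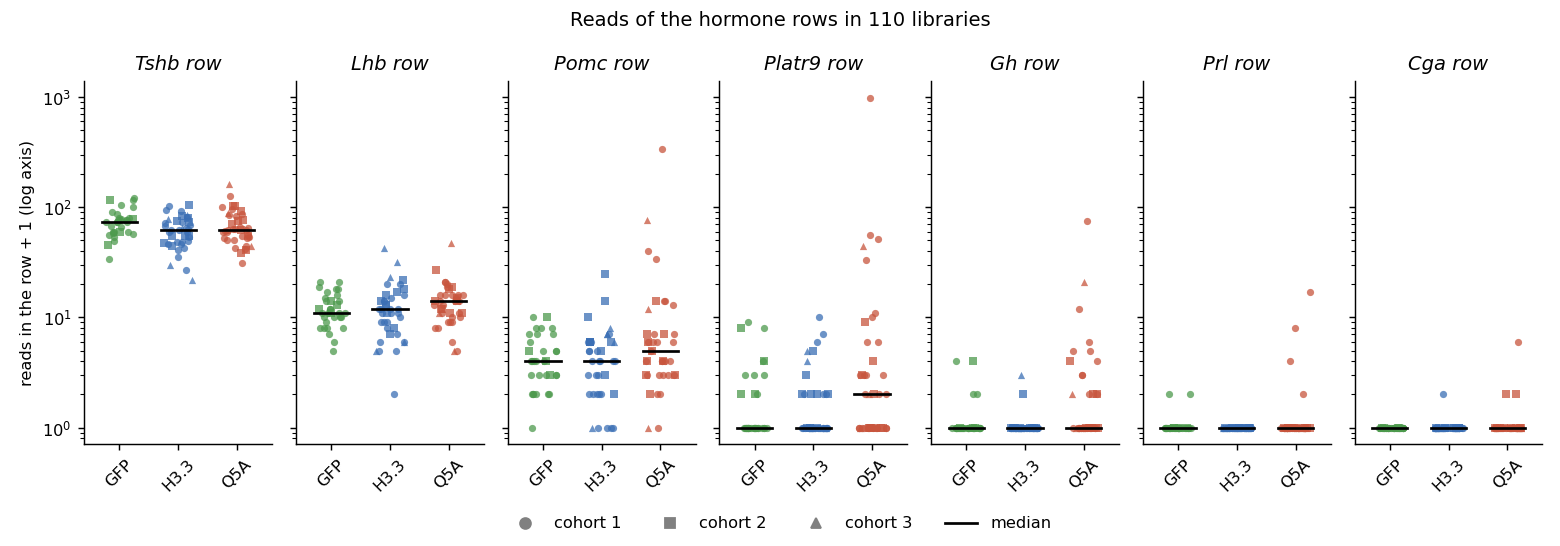
Reads of each member in each of the 110 libraries, as reads plus 1 on a log axis, by virus. Each point is a library, its marker the cohort, and the line the median of the virus. Tshb and Lhb overlap between viruses, and Platr9, Pomc, Gh and Prl each have their highest point in the same Q5A library.

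That library was replicate 3 of cohort 1 at ZT16 with Q5A. It held 986 reads of Platr9, 334 of Pomc, 74 of Gh, 16 of Prl and 5 of Cga, the highest value of each over all libraries, from an unremarkable total of 1341050 gene counts. Its Tshb (49 reads) and Lhb (20 reads) were within the range of the other libraries, and its Tshb was below the median of 62.5. Among rows with at least 10 reads there, the 3 that exceeded their highest value elsewhere by the most were Platr9 with 735 CPM against 81.7, Pomc with 249 against 40.6, and Gh with 55.2 against 10.8. The next were Hoxb5os with 8.95 against 3.99 and Gm6225 with 18.6 against 12.6, both named after their values were seen. The rows that stood out in this library were thus hormone genes of the pituitary with Platr9, and Tshb and Lhb were not among them.

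A few other libraries held part of the same set. With Q5A at ZT16, replicate 4 of cohort 1 held 55 reads of Platr9, 13 of Pomc, 4 of Gh and 7 of Prl. At ZT20, replicate 1 of cohort 1 held 50 of Platr9, 5 of Pomc, 4 of Gh and 3 of Prl, and replicate 2 held 32 of Platr9, 1 of Pomc and 11 of Gh. At ZT4, replicate 1 of cohort 3 held 43 of Platr9, 75 of Pomc and 20 of Gh. The proportions were not fixed. Pomc exceeded Platr9 in the last of these and was nearly missing from the one before it.

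Pomc was also high on its own. With Q5A at ZT4, replicate 4 of cohort 1 held 39 Pomc reads and replicate 2 held 33, with 0 and 5 of Platr9 and 0 of Gh in both. The H3.3 library with the most Pomc, replicate 2 of cohort 2 at ZT16, held 24 reads of Pomc, 1 of Platr9 and 0 of Gh. Pomc therefore appeared both with and without the anterior lobe hormones, whereas in every library with Prl the Platr9 row held at least 5 reads. Tshb ran from 30 to 126 reads in the libraries named here and was high in those of ZT20 and low in those with Pomc alone.

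**Figure D2:**
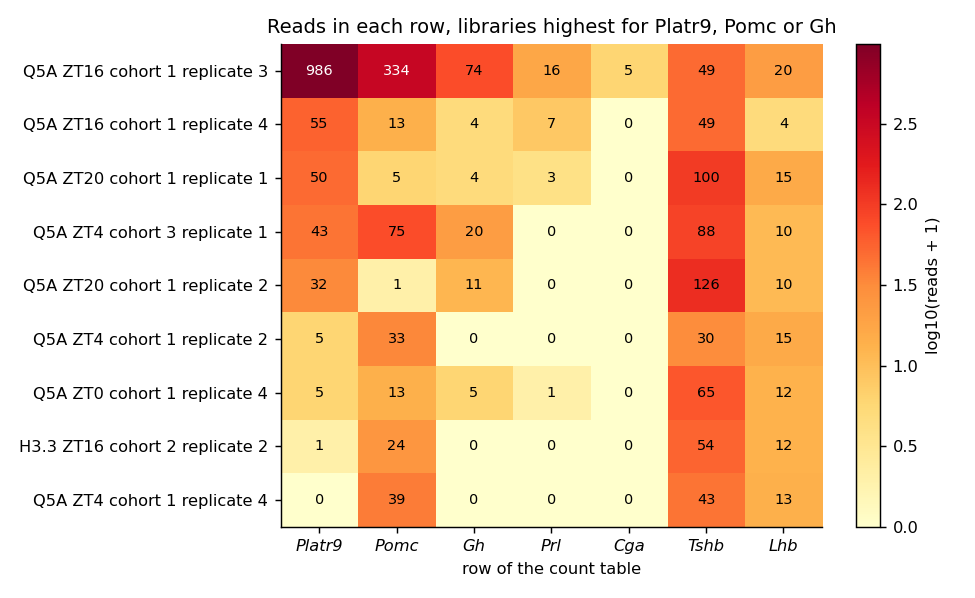
Reads of the 7 members in the 9 libraries highest for Platr9, Pomc or Gh, each cell giving a read count and shaded by it on a log scale. The first library is high in Platr9, Pomc, Gh, Prl and Cga together, the libraries with 33 and 39 Pomc reads have 0 Gh reads, and Tshb lies between 30 and 126 in all 9.

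Joint presence was counted with at least 5 reads for Platr9, 10 for Pomc and 1 for Gh, Prl and Cga. Prl was present in 6 libraries and Platr9 in 16, and all 6 with Prl were among those 16 (100% of the Prl libraries and 37.5% of the Platr9 libraries). Gh was present in 21, of which 10 also had Platr9 (47.6% of the Gh libraries and 62.5% of the Platr9 libraries). Platr9 and Pomc were present together in 5 libraries, or 31.2% of those with Platr9 and 45.5% of those with Pomc. Cga and Platr9, whose exons overlap, were present together in 1.

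Across the 110 libraries the members' values on the log2(normalised count + 1) scale were correlated in 21 pairs, with 2-sided permutation tests (100000 resamples, smallest possible p = 1e-05) adjusted over those pairs. Pairs with Cga, which has reads in 4 libraries, are left out of the text. By Spearman's rho 4 pairs passed an adjusted p of 0.05, all of them with Gh, Prl or both. Platr9 and Pomc were chosen for their counts in the Q5A libraries, where 133 of 144 Gh reads and 27 of 29 Prl reads also lay. Their values with Gh and Prl over all libraries are therefore given with no test. Platr9 and Gh had rho = 0.573 and r = 0.803. Platr9 and Prl had rho = 0.408 and r = 0.720. Gh and Prl had rho = 0.427 (permutation p = 6e-05, adjusted p = 0.00042) and r = 0.678 (permutation p = 2e-05, adjusted p = 0.00014). For Pomc and Prl, rho was 0.298 and r was 0.517. The genes were chosen with these libraries known, and shared depth and shared libraries at 0 enter each value.

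The relation of Platr9 with Gh held without the libraries of highest Platr9. Without the 2 libraries farthest from the median of Platr9, r was 0.665. Within the 71 controls, where no library exceeded 9 Platr9 reads, rho was 0.464 (permutation, adjusted p = 0.0021) and r was 0.433 (adjusted p = 0.0235). The control values rest on 6 libraries with a Gh read, which held 11 reads in all. Within cohort 1 rho was 0.537. Platr9 and Prl had rho = 0.312 in the controls (permutation, adjusted p = 0.0439), with Prl present in 2 of these libraries. The other pairs that passed over all libraries did not pass in the controls, where Gh and Prl had rho = 0.228 and Pomc and Prl rho = 0.176 (permutation, adjusted p = 0.595 each).

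Pomc was less closely tied to Platr9 by these values. Both genes were chosen for their counts in the Q5A libraries, so their correlation is given with no test: r was 0.471 and rho 0.187, and r was 0.20 without the 2 libraries farthest from the median of Platr9. On residuals from the mean of each group of virus and ZT, r was 0.425 and rho 0.240, and in the controls r was 0.089. Whether Pomc differs from Gh in its relation with Platr9 was not tested. Pomc and Gh, also given with no test, had r = 0.504 and rho = 0.225. Their r was 0.177 without the 2 libraries farthest from the median of Pomc, so that this linear relation rests on those.

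The Tshb row did not follow the others. Its rho was −0.008 with Platr9 (permutation p = 0.936, adjusted p = 0.974) and −0.195 with Pomc (permutation p = 0.0424, adjusted p = 0.111). With Gh it was 0.095 (permutation p = 0.327, adjusted p = 0.49), and with Lhb it was −0.016 (permutation p = 0.87, adjusted p = 0.961). Lhb had a rho of 0.098 with Platr9 (permutation p = 0.309, adjusted p = 0.49). These tests give no evidence of a shared course of the Tshb or Lhb row with the Platr9, Pomc or Gh rows over libraries, and they do not show that none exists. They compare rows whose strand of origin was not tested, so they do not separate pars tuberalis from anterior lobe signal.

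**Figure D3:**
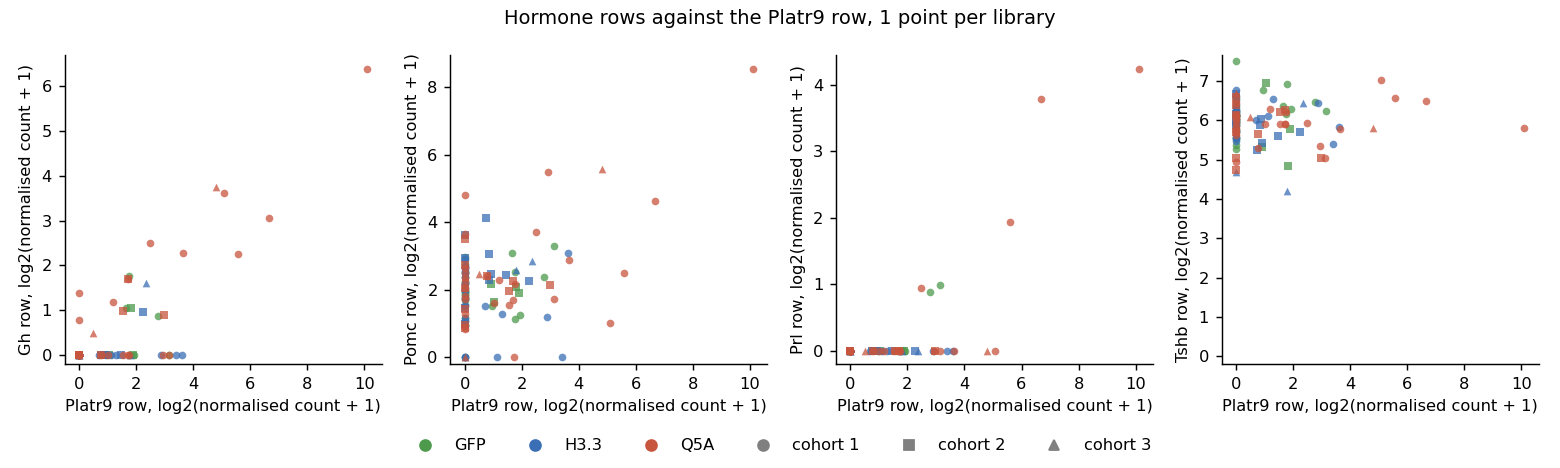
Gh, Pomc, Prl and Tshb against Platr9, each point 1 of 110 libraries, both axes log2(normalised count + 1). Colour gives the virus and marker shape the cohort. Gh lies mostly and Prl always at 0 where Platr9 is at 0, both are highest where Platr9 is highest, Pomc has high points at low Platr9 as well, and Tshb is no higher in the library with 986 Platr9 reads than in those with 0.

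Likeness over libraries was ranked among rows with a mean of at least 1 read, which left out Prl and Cga. Out of 18312 others, the ranked rows most like Platr9 were Gh (Spearman's rho = 0.573), AC157553.6 (0.372), Dab2 (0.334), Lnx2 (0.329) and Rsu1 (0.328). The rho of Prl with Platr9, 0.408, was above that of AC157553.6. Pomc ranked 473. Gh reached a mean of 1 read only through the Q5A ZT16 cohort 1 replicate 3 library, with 1.31 reads per library with it and 0.642 without it. The ranks of Gh are therefore given as descriptions, and nothing is read from them against the ranks of Pomc. The rows most like Pomc were Raxos1 (0.384), Ldb2 (0.370), Nfatc2 (0.362), Frem1 (0.330) and Tmem201 (0.328). Raxos1 shares 1604 exonic bases on the opposite strand with Rax, a homeobox gene of tanycytes. Platr9 ranked 538 and Gh 201 for likeness to Pomc, and the arcuate peptide genes Npy, Cartpt and Agrp ranked 597, 2946 and 14830. The rows most like Tshb, named after the values were seen, were RP23-414K1.4 (0.738), Scn9a (0.732) and Fbxw15 (0.718), and its opposite neighbour Tspan2 ranked 4031 (0.149). For Lhb the nearest was Mettl23 (0.650), and Ruvbl2 ranked 5139 (0.098). By the kit and the strand setting, RNA of Tspan2 and Ruvbl2 falls outside the rows of those names. Their ranks therefore do not show whether the Tshb and Lhb rows follow that RNA.

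By virus, 4 of the 7 members had enough reads for the test across genes (edgeR's quasi-likelihood test, 13891 genes tested, Benjamini-Hochberg adjusted p under 0.01), and Cga, Gh and Prl did not. In the contrast of Q5A with controls that chose Platr9 and Pomc, their log2 differences were 3.98 ± 0.52 and 1.57 ± 0.31 (SE). Tshb had −0.12 ± 0.10 and Lhb 0.06 ± 0.13. Of all genes tested, 0.036% lay past the threshold in this contrast, from which nothing is read for genes chosen by it. Just inside the threshold lay Pomc itself at 1.57 and just outside it Srebf1 at 0.36. Without the library described above the difference was 2.25 for Platr9 and 0.66 for Pomc.

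The normalised counts give the same picture by sample. Platr9 was at 1.09 ± 2.25 in the controls (SD, n = 71) and at 35.0 ± 176 in Q5A (SD, n = 39), or at 6.89 ± 18.5 without that library (SD, n = 38). Pomc was at 3.58 ± 2.78 in the controls (SD, n = 71) and at 16.4 ± 59.6 in Q5A (SD, n = 39), or at 7.03 ± 10.8 without it (SD, n = 38). Gh was at 0.118 ± 0.429 in the controls (SD, n = 71) and at 1.41 ± 2.98 in Q5A without it (SD, n = 38). In each case the SD in Q5A exceeded the mean, and the ranges of Q5A and controls overlapped from 0 upwards.

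Wild-type H3.3 against GFP, a contrast that chose no member, called 0% of the 13891 genes (526 at an unadjusted p under 0.05, and 0 by DESeq2), and so 0 of the 4 tested members. Platr9 and Pomc passed the filter on low counts through Q5A libraries. At least 10 reads were found in 0 control libraries for Platr9 and in 2 for Pomc. Their edgeR results here, and below for cohorts and rhythm, are therefore given as descriptions. Platr9 differed by −0.33 ± 1.03 (log2, SE), Tshb by −0.14 ± 0.12, Pomc by 0.16 ± 0.43 and Lhb by 0.17 ± 0.16, each with an edgeR adjusted p of 1. The SE of Platr9 leaves room for a change of several fold either way.

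Cohorts differed over many genes: cohort 2 against cohort 1, with virus and ZT in the fit, called 1.88% of genes, of which 250 of 261 were lower in cohort 2. None of the 4 tested members was among them. Platr9 was lower in cohort 2 by a log2 difference of −2.40 ± 0.75 (edgeR adjusted p = 0.0572), Pomc had −0.59 ± 0.40 (0.605), Tshb −0.19 ± 0.12 (0.534) and Lhb −0.08 ± 0.16 (0.912). Without the Q5A library with 986 Platr9 reads the Platr9 difference was −1.08 (edgeR adjusted p = 0.469). With no filter on low counts the Platr9 difference of −2.36 had an edgeR adjusted p of 3.22e-13, where 1.3% of genes were called, and with DESeq2 it turned to 0.21. Of the 9 libraries highest for Platr9, Pomc or Gh, 7 were of cohort 1, 1 of cohort 2 and 1 of cohort 3.

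Over the day, Tshb alone among the 5 members with enough reads passed the rhythm test used in the study, JTK_CYCLE with periods of 8 to 24 h and an adjusted p under 0.05, which calls 13.7% of 18313 genes in the controls. In the controls Tshb stood at 83.5 ± 22.6 normalised counts at ZT0 (SD, n = 9), 64.4 ± 18.8 at ZT4 (n = 11) and 65.0 ± 19.4 at ZT8 (n = 13). It was lowest at ZT12 with 55.2 ± 19.0 (n = 13) and at ZT16 with 58.9 ± 20.7 (n = 14), and stood at 84.2 ± 36.5 at ZT20 (n = 11). The values around lights on were thus about the highest and those after lights off the lowest, with ranges that overlapped between all times. The fitted period was 24 h with a peak at ZT0 (JTK_CYCLE exact adjusted p over templates = 0.00269). Adjusted over all genes as well, the q-value was 0.0829, which 1.88% of genes passed at 0.05 and Tshb did not. Within cohort 1 the exact JTK_CYCLE adjusted p was 0.0123, where 12.1% of genes passed, and the fitted period was 20 h.

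In Q5A, Tshb stood at 71.3 ± 17.3 at ZT0 (SD, n = 6), 49.8 ± 16.2 at ZT4 (n = 7), 56.3 ± 19.7 at ZT8 (n = 6), 61.8 ± 22.9 at ZT12 (n = 7), 61.2 ± 17.9 at ZT16 (n = 7) and 78.9 ± 29.5 at ZT20 (n = 6). Again ZT20 and ZT0 were the highest. JTK_CYCLE gave an exact adjusted p of 1, in a set where it called 4.1% of genes. The rhythm of Tshb is not shown to differ between Q5A and controls: the edgeR test of that difference itself gave an adjusted p of 0.512, where 0.122% of 13891 genes were called. The Tspan2 row opposite Tshb had a JTK_CYCLE exact adjusted p of 1 in the controls. By the kit and the strand setting, Tspan2 RNA falls outside that row. This value therefore does not show whether the Tshb row follows Tspan2 RNA.

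None of the other members passed JTK_CYCLE in either set. Gh had enough reads for this test only through the library with 986 Platr9 reads, so nothing is read from its result. Platr9, Pomc, Gh and Lhb each had a JTK_CYCLE exact adjusted p of 1 in the controls. In Q5A, Pomc had 0.145 and the others 1. An edgeR cosinor fit of a 24 h period, run as an alternative, did call Platr9 in Q5A (adjusted p = 0.0114), where it called 0.239% of genes. The test of a difference in rhythm gave edgeR adjusted p-values of 0.266 for Platr9, 0.494 for Pomc and 0.727 for Lhb, and for Platr9 the adjusted p was 0.00151 within cohort 1, where 6.15% of genes were called. High libraries of Platr9 lay at ZT4, ZT16 and ZT20 in Q5A, beside libraries of the same group at 0. With Q5A at ZT16 the 7 libraries held 0, 0, 986, 55, 0, 0 and 1 reads of Platr9. At ZT20 the 6 libraries held 50, 32, 9, 1, 1 and 0, so that libraries of one time differed more than any pair of times did by their medians of 0 to 5 reads.

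**Figure D4:**
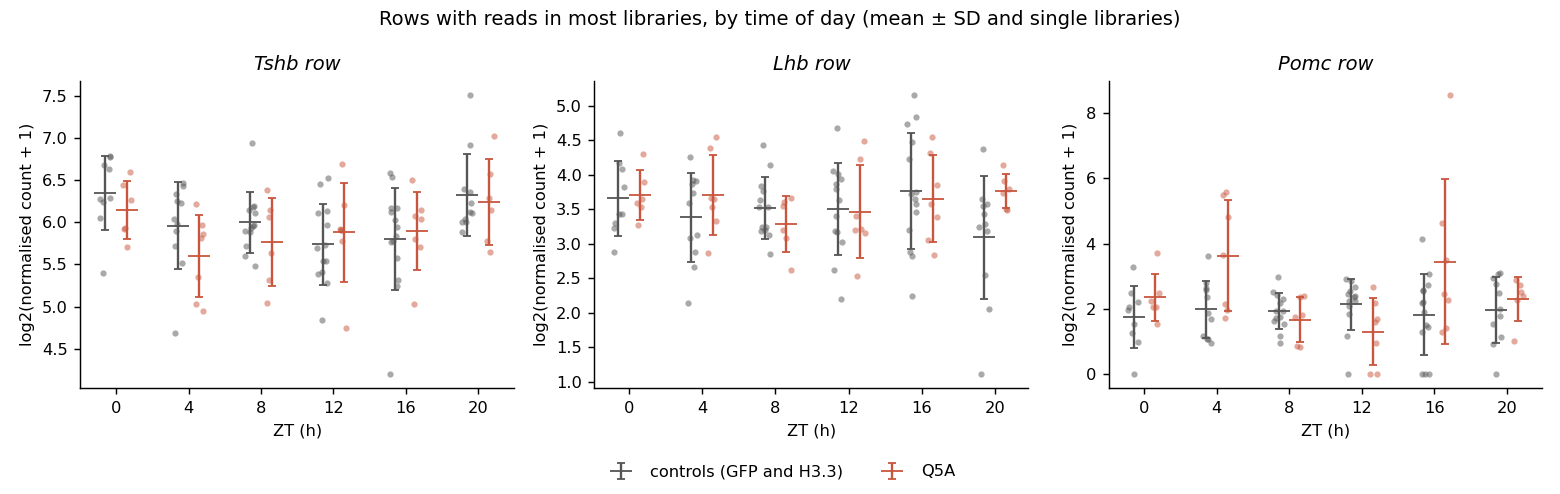
Tshb, Lhb and Pomc by ZT in h as log2(normalised count + 1), controls and Q5A side by side. Points are libraries, and horizontal lines with bars are the mean ± SD. Tshb is highest at ZT20 and ZT0 in both sets, and the single high Pomc point at ZT16 belongs to the library with 334 Pomc reads.

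Other genes of the pituitary, the arcuate nucleus and their hormone pathways were read from 9 lists of 60 genes in all, of which 33 could be tested with edgeR. Between Q5A and controls 0 of the 33 were called (2 at an unadjusted p under 0.05), and between H3.3 and GFP 0. Their median difference in Q5A was 0.09 on the log2 scale, beside 0.00 over all genes tested. The pars tuberalis list besides Tshb and Cga held the melatonin receptor Mtnr1a with 3 reads in all and the coactivator Eya3, the most-read, with 1873. Its summed level ran from 4.82 to 23.2 CPM with GFP, from 2.53 to 23.1 with H3.3 and from 2.53 to 20.4 with Q5A, almost fully overlapping. The Mtnr1a row had a read in 2 libraries, so that most libraries had reads in the Tshb row and 0 in the row of this receptor.

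The 16 further genes of the anterior lobe were led by Drd2, the dopamine receptor that striatal and other neurons also make, with 1124 reads. Hesx1 was at 0 in all libraries. Of the factors that define hormone lineages, Pou1f1, needed for the somatotropes, lactotropes and thyrotropes, held 24 reads, and Tbx19, of the corticotropes and melanotropes, held 12. The summed level of the list had medians of 21.1 CPM with GFP, 16.7 with H3.3 and 25.2 with Q5A, within ranges of 7.14 to 45.4, 5.49 to 47.4 and 9.15 to 76.1.

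In the library with 986 Platr9 reads the lists did not rise together with the hormones. Its summed level ranked 17 of 110 for the pars tuberalis list, 43 for the anterior lobe, 46 for the intermediate lobe (Pax7, Pcsk2 and Oacyl), 59 for tanycytes, 51 for TMN neurons and 105 for arcuate neurons. Pou1f1, Tbx19 and Mtnr1a were at 0 there. Lhx3, a factor of early pituitary development, was at 15 reads, ranking 3 by CPM. Pax7, a factor of the intermediate lobe, was at 8 and ranked 7. Both genes were named after their values were seen. Agrp, the most-read arcuate gene of its list, was at 16 reads there against a median of 22 elsewhere. Whether pituitary tissue took part in that library was not tested.

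Among genes of hormone release and processing, the most-read were Oxt (oxytocin) of the hypothalamic releasing and posterior lobe factors with 3852 reads, Prlr (the prolactin receptor) of the receptors with 537, Cpe (a carboxypeptidase that trims prohormones) with 45050, Pcsk2 (a convertase that cuts Pomc) with 6340, Vim of tanycytes with 1520 and Slc18a2 (the vesicle transporter of histamine and other monoamines) of TMN neurons with 10255. Calls in these lists were few. Slc18a2 was lower in cohort 2 than in cohort 1 (−0.68 ± 0.12, log2, SE, edgeR adjusted p = 1.84e-05). Hdc, which makes histamine, was the 1 list gene called for a difference in rhythm between Q5A and controls (edgeR adjusted p = 0.0266). By JTK_CYCLE, of the 43 list genes tested, Cpe (exact adjusted p = 0.00136), Scg5 (0.00706), Hdc (0.00292) and Slc18a2 (0.00237) passed in the controls and Pcsk1n (0.0281) in Q5A, where Scg5 and Pcsk1n encode chaperone-like partners of the convertases. Those are 4 of 43 in the controls against the 13.7% of all genes given above, and 1 of 43 in Q5A against 4.1%.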

How the data were processed

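The deposited values are raw counts per gene name, made by the authors with STAR 2.7.11b (GRCm38) and htseq-count of HTSeq 2.0.5 (exons, union mode, stranded option yes). Members and gene lists were chosen with earlier results of these data known. Named are the 7 members, genes opposite them, list genes that were called or most read, and the 5 rows most like Platr9 and Pomc. Of the files, 18 mapped to no sample and were used in no step, and 5 summary entries per file were left out of totals. Of 296 pairs of libraries within groups, 1 agreed within sampling noise (chi-square over genes, minimum 10 reads). Levels were tested with edgeR 4.0.16 in R 4.3.3 (TMM, filterByExpr with minimum count 10 and minimum total 15, virus and ZT as factors), with DESeq2 1.42.0 as an alternative, and rhythm with a Python version of JTK_CYCLE over genes with a mean of at least 1 read, the step checked on simulated data. Normalised counts were scaled by median-of-ratios size factors over 9428 genes. Correlations used a pseudocount of 1. Floors are 3 counts and, like all counting limits, cover counting error only. Replicate numbers did not pair libraries.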

Additional observations from a re-analysis of the deposited data

Results flagged for a closer look

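In each group of virus and ZT whose highest library held at least 10 reads of a member, the highest and the lowest library were set against the others by Dixon's test at the 95% level. Of 49 such tests, 10 picked out a library. The 95% level holds for normally distributed values, whereas these are skewed counts from groups kept for the reads of their highest library. No chance rate is therefore set beside the 10. All values are normalised counts. In Q5A at ZT16, replicate 3 of cohort 1 stood apart for Platr9 (1101, the others 0 to 101), for Pomc (373, the others 1.45 to 23.8) and for Gh (82.64, the others 0 to 7.32). In Q5A at ZT4, replicate 1 of cohort 3 stood apart for Platr9 (26.92, the others 0 to 6.87) and Gh (12.52, the others 0 to 0.962). Single values were Gh in Q5A at ZT20 (cohort 1 replicate 2, 11.28, the others 0 to 3.84), Platr9 in Q5A at ZT8 (cohort 1 replicate 4, 7.8, the others 0 to 0.716) and Pomc in Q5A at ZT0 (cohort 1 replicate 4, 12.01, the others 1.91 to 4.64). In control viruses they were Pomc with H3.3 at ZT16 (cohort 2 replicate 2, 16.44, the others 0 to 7.46) and Tshb with GFP at ZT8 (cohort 2 replicate 1, 122.2, the others 51.6 to 71.8). Platr9, Gh and Prl reached 10 reads in Q5A groups only, so the filter alone placed their values there, and nothing is read from how the 10 fall between viruses.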

How the results depend on the processing

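Over genes, Q5A against controls called 5 genes, against 2 with DESeq2, 15 with a replicate block, 37 in cohort 1 only, 3 without the Q5A ZT16 cohort 1 replicate 3 library, and 0 to 3 when the libraries with 1 replicate number in cohort 1 were removed, 0 being without replicate 3, which includes that library. Platr9 and Pomc, chosen from this contrast, lay outside its threshold with DESeq2, Pomc also with the replicate block, without the Q5A ZT16 cohort 1 replicate 3 library and with any 1 of the 5 replicate numbers left out, and Platr9 also without replicate 3. H3.3 against GFP called 0, against 7 with the replicate block and 10 in cohort 1 only. Cohort 2 against cohort 1 called 261, against 468 with no filter on low counts. The rhythm difference called 17, against 10 with DESeq2, 98 with no filter, 6 with the replicate block, 777 in cohort 1 only and 2 to 18 with a replicate number left out. JTK_CYCLE in controls called 2513, against 1453 by an edgeR cosinor, 345 by q-value and 1616 to 2596 with a replicate number left out. In Q5A it called 750, against 28, 1 and 477 to 673, and 1379 in cohort 1 only. Of the 21 correlations 4 passed by Spearman's rho, against 7 on residuals from group means and 2 in controls only, a setting chosen after seeing the data.

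For members, the Platr9 difference of H3.3 and GFP (−0.33) turned to 0.22 with DESeq2 and ran from −0.763 to 0.0783 with a replicate number left out. The Platr9 difference of cohorts (−2.40) turned to 0.21 with DESeq2. The Pomc difference of H3.3 and GFP (0.16) turned to −0.39 in cohort 1 only. The Pomc difference of cohorts (−0.59) turned to 0.14 without the Q5A ZT16 cohort 1 replicate 3 library, to 0.04 with a block of the replicate number alone (added after seeing the data), and ran from −0.711 to 0.115 with a replicate number left out. None of these passed its test, and the cause was not tested. Pomc in Q5A passed JTK_CYCLE without replicate 3 (exact adjusted p = 0.0282). The call of Tshb in the controls was lost by q-value over genes (0.0829) and kept under the other 8 JTK_CYCLE alternatives (exact adjusted p from 0.00242 to 0.0471) and by the edgeR cosinor (adjusted p = 0.037). On residuals from group means Platr9 and Pomc, given in the report with no test, were among the 7 pairs that passed.

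Replicate numbers did not pair libraries: over 616 pairs of the same number the correlation of deviations from group means averaged −0.00121, and 129 were over 0.1. A block of cohort and number together could not be fitted for the comparison of cohorts. Few counted reads limit the Cga, Prl and Gh rows, which are at 0 reads in most libraries. The gene rows together held 3.49% to 5.63% of the uniquely placed reads, so these low counts do not measure sequencing depth.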
